A study of Sus scrofa with 15 samples.

Results

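Solute carriers are the membrane proteins that move sugars, amino acids, lactate, fatty acids, ions, metals, vitamins and nucleotides across the plasma membrane and the membranes of organelles. Their genes were followed here in pig granulosa cells, which surround the oocyte in the ovarian follicle and make its hormones, as these cells lost their differentiated state in culture. A gene was a member when the single symbol given to a probe set by the array annotation had the form of a solute carrier name (SLC, a family number, a letter and a member number, or SLCO). This gave 120 genes of the 6765 genes with a named probe set, and 181 probe sets of the 23999 tested. A gene with several probe sets was represented by the one with the highest mean over all arrays. Within this rule measured values chose only between probe sets, not between genes, but the rule was set with earlier results of these data known.

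Cells were sampled on days 0, 1, 2, 4 and 7 of culture, with 3 Affymetrix porcine genome arrays on each day and 15 arrays in all. Day 0 cells came from ovarian follicles, and those of day 7, which the labels call DFOG (dedifferentiated follicular granulosa cells), had been grown to partial confluence. All days share the cell type of origin, and no parallel cells kept in the differentiated state were analysed here. Culture time and loss of the differentiated state therefore cannot be told apart. The labels call the 3 replicates of a day biological but name neither animal nor culture, so that p-values measure only the spread between these arrays. The pig is the species measured, and the roles stated below are those known mostly from human and mouse proteins unless the pig is named.

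As background, most uptake across the plasma membrane runs through a few kinds of mechanism. Glucose carriers of the SLC2 family let sugar flow down its gradient, whereas SLC5 and SLC1 carriers use the sodium gradient to concentrate their substrate. The SLC25 family serves the inner membrane of mitochondria, where it exchanges ATP for ADP and brings in phosphate and intermediates. In the follicle, granulosa cells are known to take up glucose and to pass lactate, pyruvate and amino acids on to the oocyte, which uses glucose poorly by itself.

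Levels are log2 intensities and changes are differences between log2 means, given ± SE from limma. A day's mean is given ± SD (n = 3). A change was called, and is described as a rise or a fall, when its Benjamini-Hochberg adjusted p over all probe sets was under 0.05 and its size was at least 1, which is a doubling or halving. In the time course, the moderated F test over all days took the place of the single change, and the range of the day means had to be at least 1. A probe set whose highest day mean did not exceed 4.68, the highest lower quartile of any array, is called dim. Of the 120 genes 23 were dim on every day, and none of them was called. Levels are not compared between genes, since probe sets differ in how brightly they bind.

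The labelled cell type was checked against marker lists. Of 9 granulosa markers 5 fell on day 7 against day 0, and their mean level was 6.39 to 6.48 on the day 7 arrays, against 9.60 to 9.69 on the day 0 arrays. All 5 measured smooth muscle and pericyte markers rose (10.67 to 11.09 on day 7, against 5.76 to 6.64 on day 0), as did 3 of 4 fibroblast markers (9.18 to 9.51, against 5.63 to 5.67). Over the whole array 9.36% of probe sets rose and 7.28% fell in that comparison. Of the measured blood and vessel markers, CD3E, PTPRC, CD4, CD8A, CD163, AIF1, CDH5, KDR and TEK were dim on all days. HBB, ALAS2, VWF, CD2 and CD74 were not dim and were not called in any comparison. The red blood cell marker HBB averaged 8.76 on day 0 and 8.45 on day 7. Among the rest, PECAM1 and CD14 rose and TIE1 fell. Of the 2 measured theca markers INSL3 fell, to 6.61 on day 1 and 5.67 on day 7, against 8.03 on day 0 (-1.42 ± 0.23 and -2.36 ± 0.23, limma adjusted p = 0.000486 and 3.58e-06), and CYP17A1 was not called. On bulk arrays fewer cells of a type and less RNA per cell cannot be told apart, and the part of the marker shifts in the carrier changes was not tested. RNA quality was read as the gap between the 3′ and 5′ probe sets of 1 actin control. This gap was below all day 0 arrays on day 7 and mostly so on day 1. The gap ran from 0.19 to 0.59 in the day 7 arrays and from 0.18 to 1.01 in the day 1 arrays, against 0.97 to 1.68 in the day 0 arrays, and its part in the changes was not tested. A second actin control overlapped between days, with 0.52 to 0.90 on day 7 and -0.02 to 0.90 on day 1, against 0.78 to 1.32 on day 0. Day 4 replicate 2 had a gap of 2.12 in the first control. The replicate 1 arrays had the lowest gap of their day in the first control. They also stood apart from the other arrays of their day on the third principal component. In ThrX, a bacterial control, the replicate 1 arrays again had the lowest gap of their day (1.24 to 1.54). Day 4 replicate 2 had the largest gap of its day there (2.88). The gaps are therefore not read as the RNA quality of the cells alone, and their source was not tested.

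The time course called 28 of the 120 carriers, which is 23.3% of them, against 23.6% of all probe sets. The carrier share counts only the brightest probe set of each gene, whereas the array share counts every probe set, dim and unnamed ones included. When the dimmest 40% of probe sets were left out, 28 carriers were still called, but the array share was 33.5%. The closeness of the shares therefore depends on which probe sets are counted. It was not tested whether carriers were called more or less often than other genes. In the main fit a further 18 carriers passed the adjusted p but had day means that differed by less than 1. Of all probe sets 35.9% passed the adjusted p at any size of change. Counting all comparisons, 30 carriers were called somewhere and 90 nowhere. Of the 28, 16 had their lowest mean on day 0 and 8 their highest. The shares of all probe sets called somewhere, or lowest or highest on day 0, were not counted, so these counts are not read as a trait of carriers. On day 1 against day 0, 11 carriers rose and 8 fell (6.47% of all probe sets rose and 6.03% fell, 12.5% in all). On day 7 against day 0, 17 carriers rose and 6 fell (9.36% of all probe sets rose and 7.28% fell, 16.6% in all). These array shares also depend on the dim probe sets. Without the dimmest 40% they were 18.4% on day 1 and 23% on day 7, with 19 and 23 carriers called. The median change of the 120 was -0.08 on day 1 and -0.05 on day 7, against -0.00 and -0.05 over all probe sets. The arrays of the days compared did not overlap for 49 carriers on day 1 and for 57 on day 7, against 37% and 46.5% of all probe sets. These shares also stand beside the counts by substrate group below, which were not compared with them by a test.

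**Figure D1:**
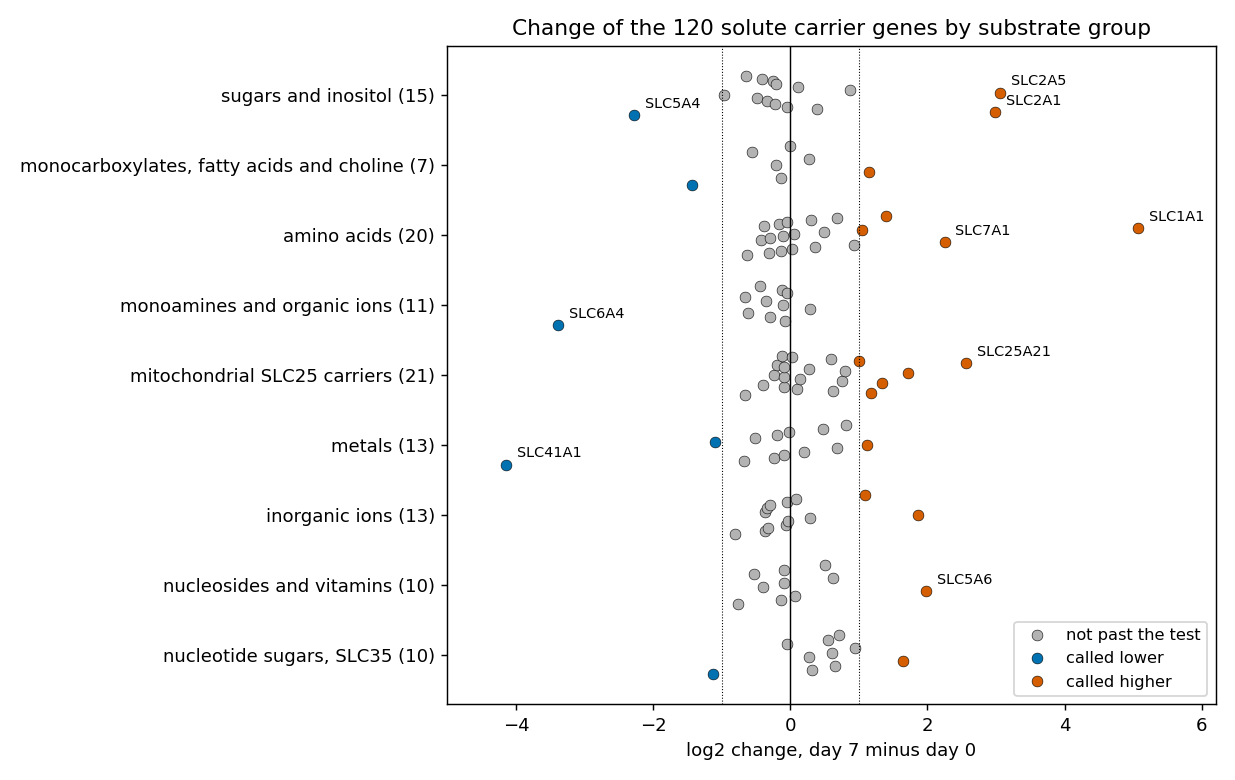
Log2 change on day 7 minus day 0 (x axis) of each of the 120 solute carrier genes, in rows by transported substrate with the number of genes in brackets. Orange points were called higher (17), blue points lower (6) and grey points were not past the test, and dotted lines mark a change of 1 either way. SLC1A1 lies farthest to the right at 5.07 and SLC41A1 farthest to the left at -4.14.

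Among the 15 carriers of sugars and inositol, 5 were called in the time course, against 23.6% of all probe sets. They included 2 facilitative carriers that rose and a sodium-driven one that fell. SLC2A1 (GLUT1), the widespread glucose carrier of the plasma membrane, rose on day 1, rose again on day 2 and was 7.94-fold higher on day 7. SLC2A5 (GLUT5), the fructose carrier, rose late. SLC5A4 (SGLT3), a low-affinity sodium-glucose cotransporter in the pig, fell on day 1 and stayed low. The other 2 were SLC45A3 and SLC50A1. SLC2A3 (GLUT3), SLC2A4 (GLUT4) and SLC2A8 (GLUT8) were not called in any comparison.

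SLC2A1 read 7.20, 7.08 and 7.06 on day 0, 7.72, 8.44 and 8.94 on day 1, 9.55, 9.51 and 9.41 on day 2, 10.47, 9.82 and 10.01 on day 4, and 10.31, 9.99 and 10.02 on day 7. Every array of a later day lay above every day 0 array, and from day 2 on no array came within the range of day 1. The rise was 1.25 ± 0.25 on day 1 against day 0 (limma adjusted p = 0.00189), and 2.99 ± 0.25 on day 7 against day 0 (limma adjusted p = 6.01e-07). Day 1 arrays were spread widely, and without day 1 replicate 3 that day's change was 0.96 and no longer called. Between day 2 and day 1 the gene rose by 1.12 ± 0.25, a call that was lost in the fits without replicate 1 (0.80) of day 1, replicate 2 (1.16) of day 1, replicate 2 (1.11) of day 2 or replicate 3 (1.16) of day 2. The levels of days 4 and 7 overlapped.

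SLC2A5 read 5.40, 4.18 and 4.95 on day 0, 4.88, 5.02 and 5.19 on day 1, 4.61, 4.95 and 5.40 on day 2, 8.91, 6.67 and 6.11 on day 4, and 8.26, 7.84 and 7.61 on day 7. The first 3 days overlapped near the dim level, and all arrays of days 4 and 7 lay above them, with a wide spread on day 4 (SD 1.48). The rise on day 7 was 3.06 ± 0.54 against day 0 (8.33-fold, limma adjusted p = 0.000609) and 2.87 ± 0.54 against day 1. Between day 4 and day 2 the change of 2.25 ± 0.54 was called (limma adjusted p = 0.0329), but not without any 1 of the day 2 arrays (2.06, 2.23 and 2.45 without replicates 1, 2 and 3).

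SLC5A4 read 8.75, 9.39 and 9.24 on day 0, 7.40, 7.18 and 6.77 on day 1, 7.49, 6.94 and 7.03 on day 2, 6.45, 6.94 and 6.69 on day 4, and 6.84, 6.96 and 6.75 on day 7. Day 0 stood alone, and all later arrays lay more than a unit below it. The change was -2.01 ± 0.22 on day 1 and -2.28 ± 0.22 on day 7 (limma adjusted p = 1.47e-05 and 2.13e-06), and days 7 and 1 differed by -0.27 ± 0.22. SLC5A1 (SGLT1), the high-affinity member of the same family, was dim on every day.

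SLC45A3, prostein, whose family is assigned to sugars, averaged 6.90 ± 0.34 on day 0, 8.42 ± 0.36 on day 1, 9.10 ± 0.71 on day 2, 8.19 ± 0.22 on day 4 and 7.77 ± 0.07 on day 7. It rose on day 1 (1.53 ± 0.30, limma adjusted p = 0.00165), and a second probe set of its 3 also rose. On day 7 it stood 0.87 ± 0.30 above day 0, under the minimum change. SLC50A1, a sugar carrier of the SWEET family, averaged 8.85 ± 0.29 on day 0, 7.73 ± 0.27 on day 1, 8.66 ± 0.27 on day 2, 8.27 ± 0.30 on day 4 and 8.36 ± 0.16 on day 7. Its fall of -1.11 ± 0.21 on day 1 lay close to the minimum change and was lost without replicate 1 of day 0 (-0.99) or of day 1 (-0.97).

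SLC2A3, a high-affinity glucose carrier, averaged 9.73 ± 0.02 on day 0, 10.30 ± 0.31 on day 1, 10.56 ± 0.41 on day 2, 10.41 ± 0.24 on day 4 and 9.68 ± 0.21 on day 7. Its F test passed (limma adjusted p = 0.0103), but its day means spanned only 0.88, with the middle days highest. SLC2A8, an intracellular sugar carrier, averaged 7.51 ± 0.05 on day 7, against 8.48 ± 0.23 on day 0. The arrays of the 2 days did not overlap and the difference of -0.96 ± 0.15 had a limma adjusted p of 0.000189, yet it missed the minimum change. SLC2A4, the insulin-regulated carrier of muscle and fat, spanned 0.23 over the 5 days and had no call. The other uncalled sugar carriers included SLC37A4, the glucose 6-phosphate carrier of the endoplasmic reticulum, whose day means lay between 8.16 and 8.89.

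The lactate carrier SLC16A3 (MCT4), which exports lactate from glycolytic cells, dipped and then rose past its starting level. It read 8.03, 7.93 and 7.63 on day 0, 6.13, 5.37 and 5.20 on day 1, 7.82, 7.23 and 7.40 on day 2, 9.81, 8.92 and 8.29 on day 4, and 9.49, 8.70 and 8.83 on day 7. Day 1 lay below all other days without overlap, day 2 overlapped day 0, and days 4 and 7 lay above both. The fall on day 1 was -2.29 ± 0.35 against day 0 (limma adjusted p = 0.000267), and day 2 then rose by 1.91 ± 0.35 against day 1 (limma adjusted p = 0.00599). Day 7 was 3.44 ± 0.35 above day 1 (10.8-fold) and 1.14 ± 0.35 above day 0 (limma adjusted p = 0.0228). The call against day 0 was lost without day 0 replicate 3 (1.03, limma adjusted p = 0.0799) or day 7 replicate 1 (0.90, limma adjusted p = 0.101). The step of 1.53 ± 0.35 between day 4 and day 2 was called, but not in the fits without replicate 2 (1.40) of day 2, replicate 3 (1.49) of day 2, replicate 1 (1.13) of day 4 or replicate 2 (1.57) of day 4.

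**Figure D2:**
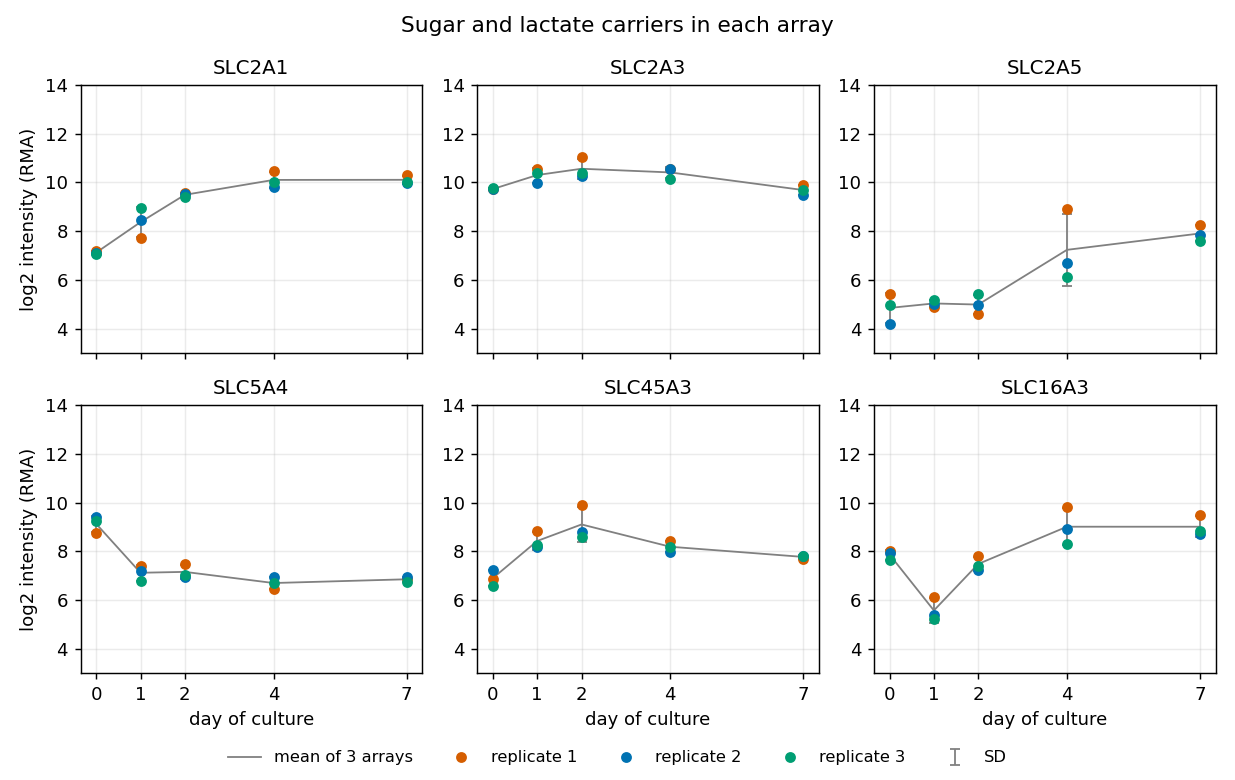
Log2 intensity (y axis) of SLC2A1, SLC2A3, SLC2A5, SLC5A4, SLC45A3 and SLC16A3 on each array by day of culture (x axis), with points coloured by replicate number, a grey line through the day means and bars of 1 SD (n = 3). SLC2A1 climbs to a mean of 10.10 on days 4 and 7, SLC5A4 drops on day 1 and stays near 7, SLC2A5 is raised on days 4 and 7, and SLC16A3 has its lowest mean, 5.57, on day 1.

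SLC27A1 (FATP1), which takes up long-chain fatty acids, was the other called carrier among the 7 for monocarboxylates, fatty acids and choline. It read 7.83, 7.78 and 7.78 on day 0, 6.40, 6.27 and 6.34 on day 1, 5.97, 6.86 and 6.81 on day 2, 6.05, 6.43 and 6.07 on day 4, and 6.37, 6.32 and 6.39 on day 7. All later arrays lay below day 0, and they overlapped one another. The fall was -1.47 ± 0.20 on day 1 and -1.44 ± 0.20 on day 7 (limma adjusted p = 9.63e-05 and 6.78e-05). The remaining 5 (SLC16A13, SLC27A6, SLC33A1, SLC44A2 and SLC44A4) had day means that spanned 0.27 to 0.73 and were not called.

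Of the 20 carriers of amino acids and peptides, 4 rose on day 7 against day 0 and none fell. Of all probe sets 9.36% rose and 7.28% fell. SLC1A1 (EAAT3), a sodium-driven carrier of glutamate, aspartate and cysteine, was 33.6-fold higher by its chosen probe set, the largest rise of any carrier. SLC7A1 (CAT1), the main carrier of arginine and lysine, SLC1A5 (ASCT2), which exchanges glutamine and other neutral amino acids, and SLC3A2 (CD98 heavy chain), the partner subunit of several SLC7 exchangers, also rose. They did so at different times. On day 1, SLC7A1, SLC3A2 and the glutamine carrier SLC38A1 (SNAT1) rose, and SLC3A1 fell.

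SLC1A1 read 6.10, 4.72 and 4.89 on day 0, 5.09, 4.94 and 4.43 on day 1, 5.89, 5.39 and 5.63 on day 2, 8.48, 7.94 and 9.37 on day 4, and 10.41, 10.18 and 10.34 on day 7. The first 3 days overlapped, day 4 lay above all of them, and day 7 lay above day 4 without overlap. The rise on day 7 was 5.07 ± 0.37 against day 0 (limma adjusted p = 1.81e-07), and that between day 4 and day 2 was 2.96 ± 0.37 (limma adjusted p = 0.000421). The last step, 1.71 ± 0.37 between day 7 and day 4, did not pass (limma adjusted p = 0.22). The gene has 5 probe sets, which differ in level. On day 7 a second rose by 1.48 ± 0.40. This second one was brighter than the chosen one on days 0, 1 and 2 (6.25, 5.59 and 5.91, against 5.24, 4.82 and 5.64). The chosen one had the higher mean over all arrays (6.92, against 6.38) only through days 4 and 7, so the rise itself decided the choice. The other 3 were dim on all days, with differences of 1.64, 0.40 and -0.15 between levels in the dim range, of which the first passed the test. With the mean of all 5 the step between day 4 and day 2 was 0.91 and not called.

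SLC7A1 read 7.44, 7.64 and 7.34 on day 0, 9.08, 9.62 and 9.63 on day 1, 9.49, 9.24 and 9.22 on day 2, 9.99, 9.68 and 9.76 on day 4, and 9.42, 9.92 and 9.83 on day 7. All later arrays lay well above day 0. The rise was 1.97 ± 0.18 on day 1 and 2.25 ± 0.18 on day 7 (limma adjusted p = 3.99e-06 and 4.56e-07). SLC1A5, in contrast, averaged 7.14 ± 0.21 on day 0, 7.17 ± 0.20 on day 1, 7.29 ± 0.34 on day 2, 8.01 ± 0.08 on day 4 and 8.54 ± 0.27 on day 7. It overlapped day 0 on days 1 and 2, changed by 0.03 ± 0.19 on day 1, and rose by 1.40 ± 0.19 on day 7 (limma adjusted p = 6.85e-05).

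SLC3A2 read 8.17, 7.76 and 8.12 on day 0, 10.18, 9.61 and 9.77 on day 1, 9.42, 8.76 and 8.93 on day 2, 8.95, 8.65 and 8.77 on day 4, and 9.09, 8.98 and 9.10 on day 7. Day 1 was the highest day and did not overlap any other. The rise was 1.83 ± 0.19 on day 1 (limma adjusted p = 1.29e-05) and 1.04 ± 0.19 on day 7 (limma adjusted p = 0.000873). The day 7 value lay at the minimum change and was not called without day 0 replicate 2 (0.91), after a second quantile normalization (0.94) or after cyclic loess (0.90). Its light chain partners SLC7A5 and SLC7A11 had no named probe set and were not analysed here. SLC7A7, an SLC7 member that was measured, was not called and changed by -0.31 ± 0.16 on day 7. The second probe set of SLC7A7 changed by -0.88 (limma adjusted p = 0.00232), under the minimum change.

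SLC38A1 read 7.85, 8.63 and 8.29 on day 0, 8.99, 10.08 and 10.14 on day 1, 8.80, 10.30 and 10.16 on day 2, 8.77, 9.55 and 9.54 on day 4, and 8.02, 9.35 and 9.42 on day 7. The replicate 1 array was the lowest of every day. The rise on day 1 was 1.48 ± 0.46 (limma adjusted p = 0.031), and both other probe sets of the gene also rose on day 1, by 1.37 and 1.40. For the chosen probe set the day 1 call was lost in the fits without replicate 1 (1.28) of day 0, replicate 3 (1.50) of day 0, replicate 2 (1.31) of day 1 or replicate 3 (1.28) of day 1. It was also lost after a second quantile normalization (1.42) or cyclic loess (1.30). In the time course the chosen probe set was not called (limma adjusted p = 0.0809), but it was with replicate number as a block (6.59e-05), and both other probe sets were called without it.

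SLC3A1 (rBAT), the heavy chain of the cystine and dibasic amino acid carrier of kidney and gut, averaged 8.41 ± 0.18 on day 0, 7.18 ± 0.33 on day 1, 8.27 ± 0.52 on day 2, 7.98 ± 0.82 on day 4 and 8.27 ± 0.43 on day 7. It fell by 1.23 ± 0.37 on day 1 (limma adjusted p = 0.0246). Leaving out replicate 1 (-1.13) or 2 (-1.25) of day 0, or replicate 2 (-1.20) or 3 (-1.07) of day 1, ended that call, as did the mean with its second, dim probe set (-0.65). The time course was not called (limma adjusted p = 0.0815) except with replicate number as a block (0.00247). The block also called the rises of 1.09 ± 0.37 between day 2 and day 1 (limma adjusted p = 0.111 without it and 0.00724 with it) and of 1.08 ± 0.37 between day 7 and day 1 (0.0556 and 0.00259). Its light chain SLC7A9 was dim on all days.

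The other 14 amino acid carriers were called in no comparison, with day means spanning 0.11 to 1.00. SLC38A9, an arginine sensor of the lysosome, stood 0.92 ± 0.21 above day 0 on day 7 and passed the adjusted p alone. Its second probe set changed by -0.23 ± 0.20 on day 7 (limma adjusted p = 0.432) and by -0.80 on day 1 (limma adjusted p = 0.00896), where the chosen one changed by -0.08. SLC1A3 (EAAT1), the astrocyte relative of SLC1A1, averaged 4.31 ± 0.01 on day 7, against 4.42 ± 0.23 on day 0, and was dim throughout.

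Of the 11 carriers of monoamines and organic ions 7 were dim on every day, and SLC6A4, the serotonin transporter, was the only one called. It read 8.53, 7.85 and 8.81 on day 0, 8.41, 8.24 and 7.71 on day 1, 8.28, 7.90 and 7.62 on day 2, 4.80, 5.70 and 5.89 on day 4, and 4.49, 6.08 and 4.48 on day 7. The first 3 days overlapped, and all arrays of days 4 and 7 lay more than a unit below them, with 2 of the 3 day 7 arrays below 4.68. The fall was -2.47 ± 0.42 between day 4 and day 2 (limma adjusted p = 0.00375) and -3.38 ± 0.42 on day 7 against day 0 (10.4-fold, limma adjusted p = 2.77e-05). On day 1 it had changed by only -0.28 ± 0.42. SLC22A5 (OCTN2), the plasma membrane carnitine carrier, averaged 5.37 on day 1 and 5.59 on day 7, against 6.26 on day 0. It passed the F test with a range of 0.99, just under the minimum.

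**Figure D3:**
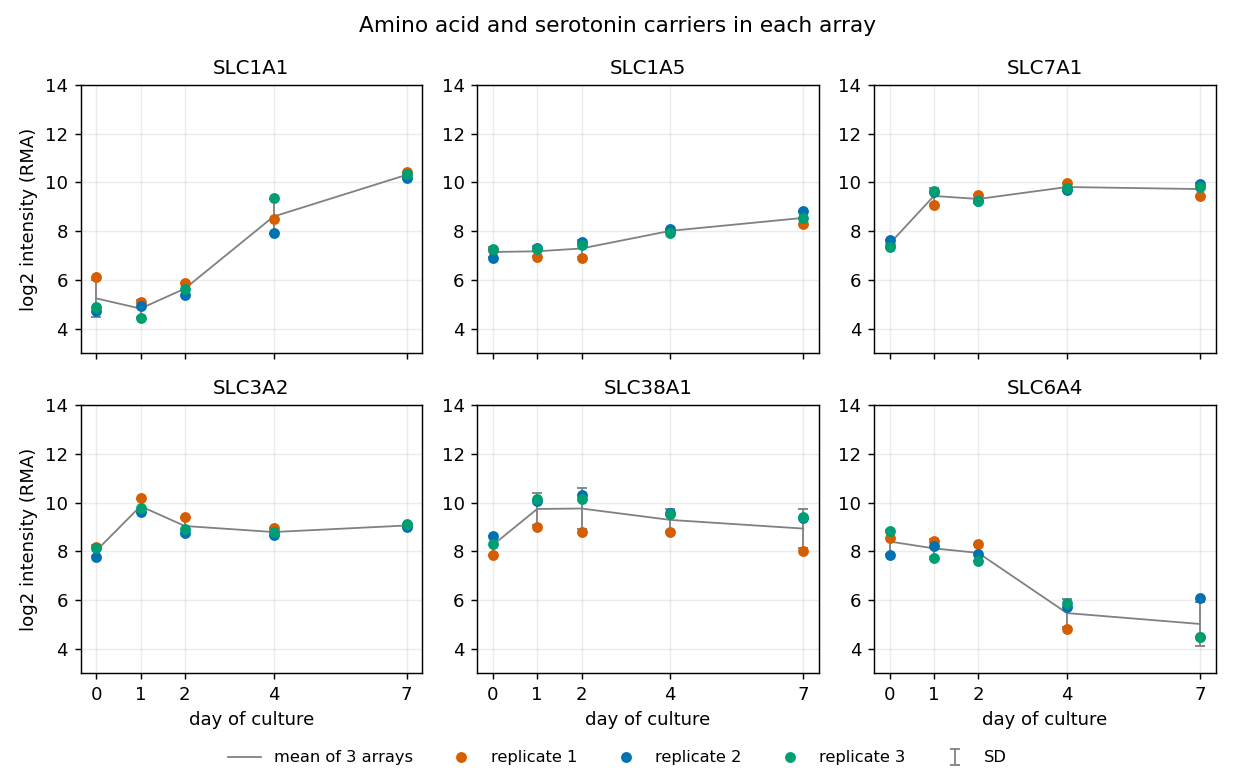
Log2 intensity (y axis) of SLC1A1, SLC1A5, SLC7A1, SLC3A2, SLC38A1 and SLC6A4 on each array by day of culture (x axis), with points coloured by replicate number, a grey line through the day means and bars of 1 SD (n = 3). SLC7A1 and SLC3A2 step up on day 1, SLC1A1 and SLC1A5 climb on days 4 and 7, SLC6A4 drops on day 4, and the replicate 1 points of SLC38A1 lie lowest on every day.

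Of the 21 SLC25 carriers 6 were called in the time course, against 23.6% of all probe sets. On day 7 against day 0, where 9.36% of all probe sets rose and 7.28% fell, 5 of these carriers rose and none fell. They were SLC25A21, a carrier of oxoadipate and oxoglutarate, SLC25A17, a family member of the peroxisome that carries coenzymes, SLC25A24, a calcium-regulated carrier of ATP-magnesium and phosphate, SLC25A33, a pyrimidine nucleotide carrier, and SLC25A5 (ANT2), an ADP/ATP exchanger. The sixth, SLC25A4 (ANT1), the ADP/ATP exchanger typical of heart and muscle, fell on day 1 and then rose. The very bright SLC25A6 (ANT3) and SLC25A3, the phosphate carrier, were not called.

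SLC25A21 read 7.84, 8.32 and 8.19 on day 0, 8.30, 9.07 and 8.98 on day 1, 9.37, 9.72 and 9.40 on day 2, 10.31, 10.78 and 10.64 on day 4, and 10.41, 10.85 and 10.77 on day 7. It climbed from day to day, with days 0 and 1 overlapping slightly and days 4 and 7 overlapping almost fully. It rose by 2.56 ± 0.22 on day 7 against day 0 (5.89-fold, limma adjusted p = 7.56e-07). Its step of 1.08 ± 0.22 between day 4 and day 2 was called (limma adjusted p = 0.0117), but not without day 2 replicate 3 (1.03) or day 4 replicate 2 (0.98). SLC25A17 averaged 9.02 ± 0.25, 9.77 ± 0.26, 10.16 ± 0.34, 10.54 ± 0.15 and 10.73 ± 0.21 on days 0, 1, 2, 4 and 7 and rose by 1.71 ± 0.20 on day 7 (limma adjusted p = 1.73e-05).

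SLC25A24 read 9.56, 9.81 and 9.39 on day 0, 11.24, 11.47 and 11.41 on day 1, 11.65, 11.50 and 11.41 on day 2, 11.44, 11.18 and 11.31 on day 4, and 11.08, 10.79 and 10.91 on day 7. It rose by 1.79 ± 0.14 on day 1 (limma adjusted p = 1.19e-06) and by 1.34 ± 0.14 on day 7 (limma adjusted p = 6.31e-06). Day 7 lay below day 1 without overlap, by a difference of -0.45 ± 0.14 that was under the minimum change. Its second probe set changed by 0.59 ± 0.26 on day 7 and was not called, and the mean of both gave 0.97. SLC25A33 averaged 7.88 ± 0.26 on day 0, 9.29 ± 0.14 on day 1, 8.87 ± 0.07 on day 2, 9.12 ± 0.30 on day 4 and 9.06 ± 0.29 on day 7. It rose by 1.40 ± 0.19 on day 1 and 1.18 ± 0.19 on day 7 (limma adjusted p = 9.60e-05 and 0.000266), but the mean with its second probe set fell short of the minimum, at 0.95 and 0.72.

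The ADP/ATP exchangers differed among themselves. SLC25A4 read 10.94, 10.74 and 9.54 on day 0, 8.93, 8.83 and 8.68 on day 1, 9.66, 9.35 and 9.33 on day 2, 10.55, 9.93 and 9.79 on day 4, and 10.06, 9.98 and 9.98 on day 7. Day 1 lay below every other day, and day 0 was widely spread because replicate 3 was low. SLC25A4 fell by 1.59 ± 0.30 on day 1 (limma adjusted p = 0.00121) and rose by 1.19 ± 0.30 between day 7 and day 1 (limma adjusted p = 0.0116), ending -0.40 ± 0.30 from day 0. SLC25A5 read 11.25, 11.29 and 11.37 on day 7, against 10.36, 10.30 and 10.24 on day 0, with days 1, 2 and 4 between 10.91 and 11.46. Its rise on day 7 was 1.00 ± 0.12 (limma adjusted p = 2.53e-05), at the minimum change itself. It was not called without day 0 replicate 3 (0.98) or day 7 replicate 3 (0.97), nor with arrays shifted to 1 median (0.97), a second quantile normalization (0.77) or cyclic loess (0.74). SLC25A6 averaged 12.95 ± 0.13 on day 7, against 13.19 ± 0.06 on day 0, and the change of -0.23 ± 0.14 was not called.

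SLC25A3 averaged 13.10 ± 0.10 on day 7, against 13.00 ± 0.18 on day 0, with no call. SLC25A1, which exports citrate for lipid synthesis, averaged 10.69 ± 0.13 on day 7, against 9.94 ± 0.13 on day 0, a change of 0.75 ± 0.16 that passed the adjusted p (0.0024, limma) but not the minimum. SLC25A20, the carnitine-acylcarnitine carrier of fatty acid oxidation, averaged 8.74 ± 0.34 on day 7, against 8.94 ± 0.18 on day 0, and was not called. SLC25A37 (mitoferrin 1), an iron importer of mitochondria, was not called by its chosen probe set (0.80 ± 0.28 on day 7, limma adjusted p = 0.0461). Its other probe set rose by 1.18 ± 0.18. Over the 15 uncalled SLC25 carriers the day means spanned 0.18 to 0.97.

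**Figure D4:**
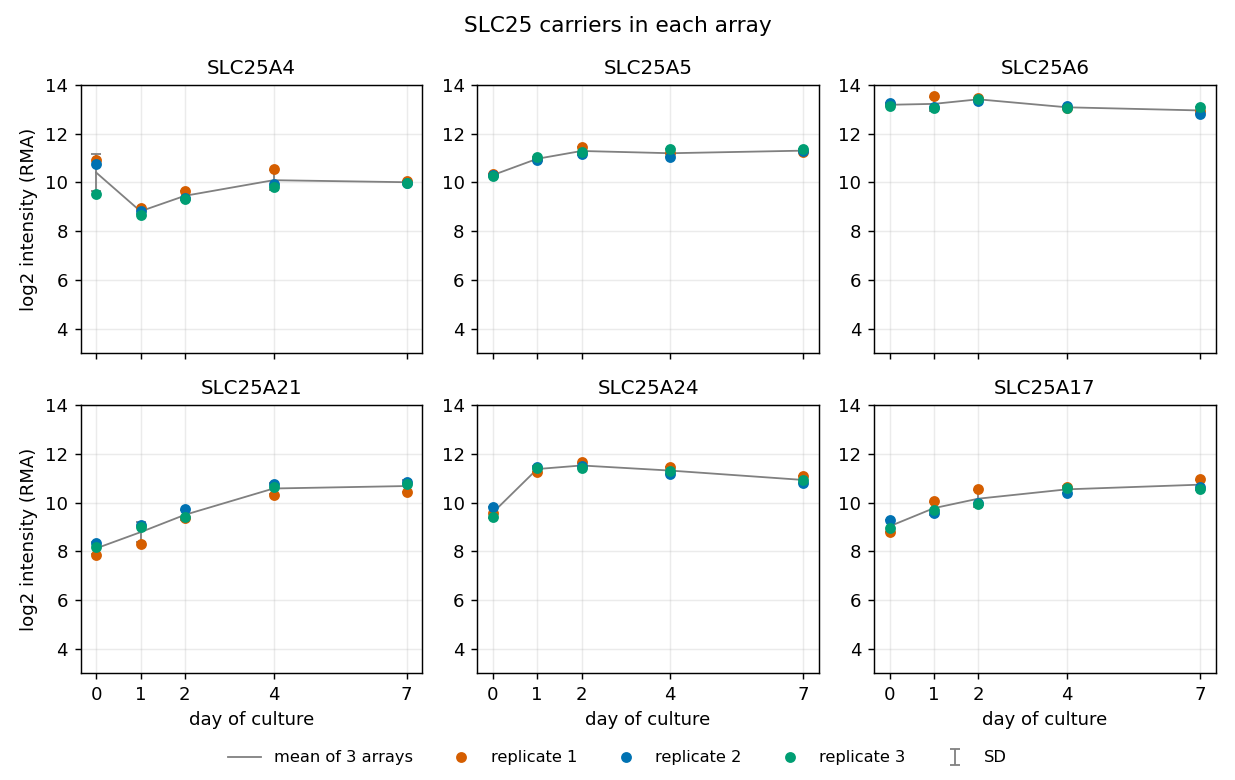
Log2 intensity (y axis) of the ADP/ATP exchangers SLC25A4, SLC25A5 and SLC25A6 and of SLC25A21, SLC25A24 and SLC25A17 on each array by day of culture (x axis), with points coloured by replicate number, a grey line through the day means and bars of 1 SD (n = 3). SLC25A4 has its lowest mean, 8.81, on day 1, SLC25A6 stays near 13, and SLC25A21 climbs to a mean of 10.68 on day 7.

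Among the 13 metal carriers the largest fall of any solute carrier was found. SLC41A1, a sodium-dependent magnesium exporter of the plasma membrane, read 12.02, 11.59 and 10.66 on day 0, 8.95, 8.64 and 8.11 on day 1, 7.46, 7.31 and 7.03 on day 2, 7.08, 7.57 and 6.94 on day 4, and 7.50, 7.25 and 7.09 on day 7. Day 0 lay above day 1 and day 1 above all later days, without overlap, and days 2, 4 and 7 overlapped. It fell, with changes of -2.86 ± 0.31 on day 1 (limma adjusted p = 1.54e-05) and -4.14 ± 0.31 on day 7 (17.7-fold, limma adjusted p = 2.11e-07). All 4 of its probe sets fell in both comparisons, with day 7 changes of -4.62 to -1.88. The further step of -1.30 ± 0.31 between day 2 and day 1 (limma adjusted p = 0.0234) was lost in the fits without replicate 1 (-1.11) of day 1, replicate 2 (-1.26) of day 1, replicate 2 (-1.32) of day 2 or replicate 3 (-1.18) of day 2, and with the mean of all probe sets (-1.01).

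SLC11A2 (DMT1), which brings iron into cells and out of endosomes, averaged 6.11 ± 0.42 on day 0, 7.16 ± 0.31 on day 1, 7.54 ± 0.04 on day 2, 7.62 ± 0.20 on day 4 and 7.23 ± 0.08 on day 7. It rose by 1.05 ± 0.20 on day 1 and 1.12 ± 0.20 on day 7 (limma adjusted p = 0.00153 and 0.000711). The day 1 call was lost when replicate 1 of day 0 (0.85) or replicate 2 (0.95) or 3 (0.98) of day 1 was left out, and the day 7 call without day 0 replicate 1 (0.91). None of its 3 other probe sets was called, and the mean of all 4 changed by 0.38 on day 7. SLC30A3 (ZnT3), which loads zinc into vesicles, averaged 7.17 ± 0.06 on day 7, against 8.27 ± 0.15 on day 0, and fell by 1.10 ± 0.16 (limma adjusted p = 0.000126). The mean of its 2 probe sets changed by -0.70. SLC39A14 (ZIP14), an importer of zinc and iron, averaged 6.38 ± 0.30 on day 7, against 7.06 ± 0.67 on day 0, and was not called.

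Of the 13 carriers of inorganic ions 3 were called in the time course. SLC12A4 (KCC1), which moves potassium and chloride out of cells together, read 7.10, 6.92 and 6.85 on day 0, 8.69, 8.14 and 8.26 on day 1, 8.90, 8.10 and 8.35 on day 2, 9.38, 8.56 and 8.57 on day 4, and 8.97, 8.61 and 8.85 on day 7. All later arrays lay above day 0. It rose by 1.41 ± 0.25 on day 1 and 1.86 ± 0.25 on day 7 (limma adjusted p = 0.000785 and 5.42e-05). SLC8B1, the sodium-calcium exchanger of mitochondria, averaged 6.57 ± 0.13 on day 7, against 5.48 ± 0.10 on day 0, and rose by 1.09 ± 0.15 (limma adjusted p = 6.53e-05). SLC26A6, an exchanger of chloride for oxalate and bicarbonate, averaged 6.81 ± 0.24 on day 0, 5.90 ± 0.19 on day 1, 6.36 ± 0.16 on day 2, 7.08 ± 0.06 on day 4 and 7.10 ± 0.17 on day 7. Its day 1 difference of -0.91 ± 0.16 was under the minimum, and it rose by 1.20 ± 0.16 between day 7 and day 1 (limma adjusted p = 0.000114). SLC4A4, the sodium bicarbonate cotransporter, averaged 5.40 ± 0.01 on day 1, against 6.33 ± 0.50 on day 0, a difference of -0.94 ± 0.22 that was not called.

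Among the 10 carriers of nucleosides and vitamins, SLC5A6 (SMVT), the sodium-driven carrier of biotin, pantothenate and lipoate, had the largest day 1 rise of any carrier. It read 5.76, 6.02 and 6.34 on day 0, 8.41, 8.55 and 8.69 on day 1, 8.24, 8.11 and 8.50 on day 2, 7.94, 8.17 and 7.84 on day 4, and 8.20, 7.97 and 7.88 on day 7. Every later array lay more than a unit above day 0. The rise was 2.51 ± 0.17 on day 1 (5.68-fold, limma adjusted p = 3.32e-07) and 1.97 ± 0.17 on day 7 (limma adjusted p = 8.33e-07). SLC46A2, a relative of the proton-coupled folate carrier, averaged 6.51 ± 0.10 on day 7, against 5.35 ± 0.08 on day 1, and rose by 1.16 ± 0.23 between them (limma adjusted p = 0.00314). SLC29A1 (ENT1), which equilibrates nucleosides, averaged 6.73 ± 0.49 on day 7, against 6.67 ± 0.72 on day 0, and was not called.

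In the SLC35 family, most of whose known members carry nucleotide sugars into the Golgi and endoplasmic reticulum, 2 of 10 were called and both belong to a branch whose substrates are less well known. SLC35F5 read 11.19, 11.35 and 10.78 on day 0, 10.01, 9.34 and 8.69 on day 1, 10.27, 9.36 and 9.52 on day 2, 10.08, 9.80 and 10.01 on day 4, and 9.89, 10.05 and 9.97 on day 7. All later arrays lay below day 0. It fell by 1.76 ± 0.29 on day 1 (limma adjusted p = 0.000551), as did both its other probe sets. The change was -1.14 ± 0.29 on day 7 (limma adjusted p = 0.00898), where the other probe sets were not called and the mean of all 3 gave -0.94. SLC35F6 averaged 9.16 ± 0.33 on day 1 and 9.21 ± 0.19 on day 7, against 7.57 ± 0.11 on day 0. It rose by 1.59 ± 0.19 and 1.64 ± 0.19 (limma adjusted p = 4.34e-05 and 1.82e-05), and its second probe set rose too. The established nucleotide sugar carriers moved less, and SLC35A4, SLC35B1, SLC35C1 and SLC35C2 passed the adjusted F test with ranges under 1.

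By timing, 9 carriers rose on day 1 and were still raised on day 7 (7.5%, against 4.1% of all probe sets), namely SLC11A2, SLC12A4, SLC25A24, SLC25A33, SLC2A1, SLC35F6, SLC3A2, SLC5A6 and SLC7A1. For SLC11A2, SLC25A24, SLC25A33, SLC2A1 and SLC3A2 a call behind this class was lost in an alternative run, as given above. Here too the carrier share counts only the brightest probe set of a gene and the array share every probe set. SLC27A1, SLC35F5, SLC41A1 and SLC5A4 fell on day 1 and were still lowered on day 7 (3.33%, against 3.97%). The day 7 call of SLC35F5 was lost with the mean of its probe sets. SLC16A3 and SLC25A4 fell on day 1 and rose between day 7 and day 1 (1.67%, against 0.875%), and no carrier did the reverse, as 0.704% of all probe sets did. SLC1A1, SLC1A5 and SLC2A5 rose and SLC6A4 fell late, which means on day 7 against both day 0 and day 1 with no change past the adjusted p on day 1. The late rises made up 2.5% of the carriers, against 2.55% of all probe sets, and the late fall 0.833%, against 1%.

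Step by step, 3 carriers changed between day 2 and day 1 (3.04% of all probe sets did, 2.04% upward and 1% downward). SLC16A3 and SLC2A1 rose and SLC41A1 fell. Between day 4 and day 2 there were 5 changes (2.53% of all probe sets, 2% upward and 0.538% downward), with rises of SLC1A1, SLC2A5, SLC16A3 and SLC25A21 and a fall of SLC6A4. Between day 7 and day 4 limma called none of the 120 (0.0583% of all probe sets were called, 0.0458% higher and 0.0125% lower). Of the 120, 6 had an unadjusted limma p under 0.05, as had 4.63% of all probe sets. Against day 1, 9 carriers rose and 2 fell on day 7 (9.03% of all probe sets were called, 5.73% higher and 3.31% lower). These step counts rest on few arrays. The count between day 2 and day 1 was 1 without replicate 1 or 2 of day 1 or replicate 2 or 3 of day 2, and 5 without replicate 1 of day 2. The count between day 4 and day 2 was 2 without day 2 replicate 3 and 3 without day 2 replicate 2 or day 4 replicate 2.

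**Figure D5:**
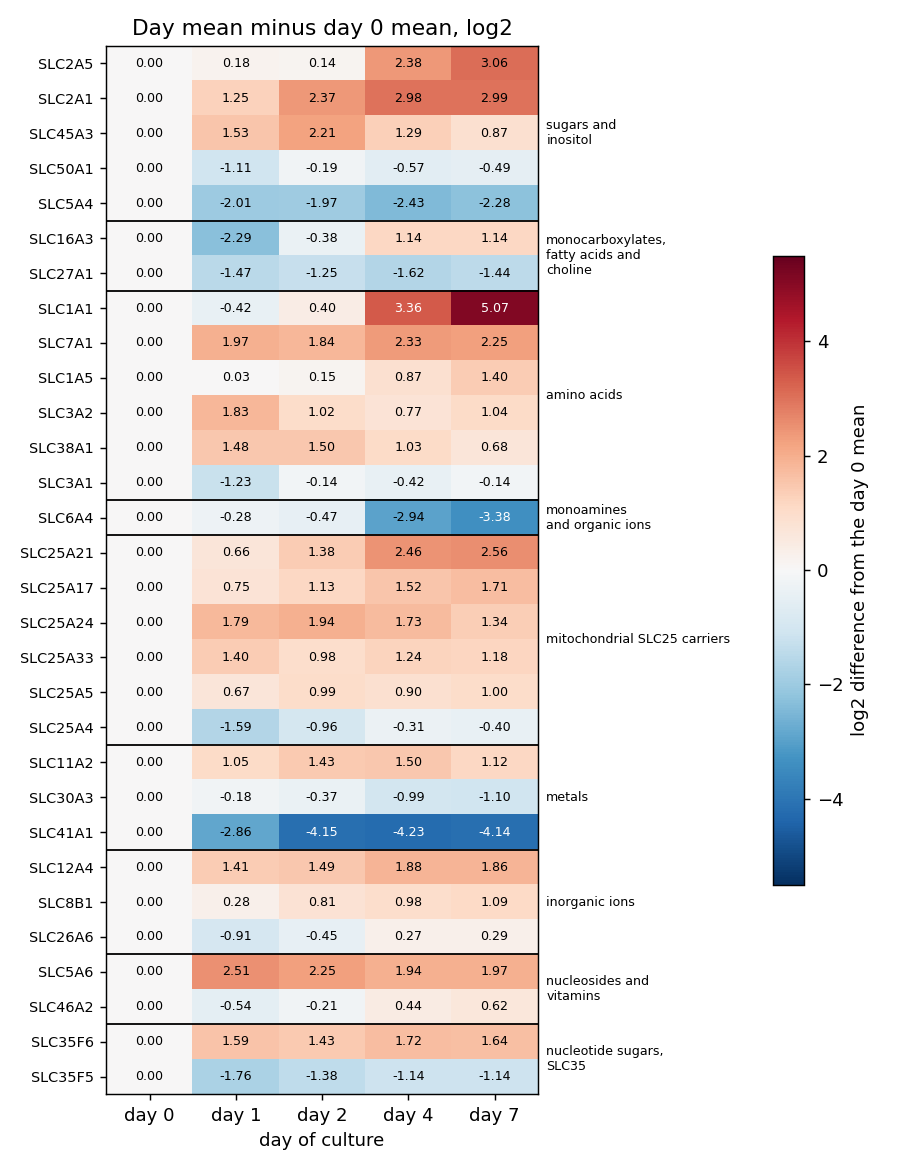
Day mean minus day 0 mean (log2, printed in each cell and coloured from blue for lower to red for higher) of the 30 carriers called in the time course or in a comparison, with days 0, 1, 2, 4 and 7 from left to right and carriers grouped by substrate. The red cells of SLC1A1 deepen on day 4 (3.36) and day 7 (5.07), those of SLC5A6 are deepest on day 1 (2.51), and the blue cells of SLC41A1 are below -4 by day 2.

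Genes that act on carriers were looked at beside them. Of 9 measured partner subunits and chaperones, 1 rose and 1 fell on day 7 against day 0, with a list median of -0.12, against -0.05 over all probe sets. In that comparison 9.36% of all probe sets rose and 7.28% fell. EMB (embigin), a chaperone of monocarboxylate carriers, read 6.15, 5.32 and 5.49 on day 7, against 3.05, 3.88 and 3.77 on day 0, a difference of 2.09 ± 0.26 (limma adjusted p = 3.52e-05). All its day 0 arrays were below 4.68, the limit of the dim range, so that the size of this rise, and of that on day 1, is uncertain. BSG (basigin), the chaperone of SLC16A3, averaged 10.55 ± 0.19 on day 7, against 10.38 ± 0.13 on day 0, and was not called. SLC9A3R1, now NHERF1, a scaffold that anchors carriers under the membrane, averaged 8.08 ± 0.11 on day 7, against 10.33 ± 0.48 on day 0, and fell by 2.25 ± 0.20 (limma adjusted p = 1.22e-06). On day 1 the list had 1 rise, of EMB, and 2 falls, of SLC9A3R1 and of ARL6IP1, a shaping protein of the endoplasmic reticulum (-1.37 ± 0.26). On that day 6.47% of all probe sets rose and 6.03% fell.

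Of 11 measured regulators of carrier genes and uptake, 3 rose and 1 fell on day 1 (list median 0.32, against -0.00 over all probe sets). On day 7, 2 rose and 3 fell (list median -0.28, against -0.05). The shares of all probe sets called were 12.5% on day 1 and 16.6% on day 7, and the list was not compared with them by a test. SGK1, a kinase that keeps ion and nutrient carriers at the cell surface, read 10.17, 10.73 and 10.75 on day 1 and 9.96, 10.18 and 9.32 on day 7, against 5.15, 5.24 and 5.09 on day 0. It rose by 5.39 ± 0.27 on day 1 and 4.66 ± 0.27 on day 7 (limma adjusted p = 3.18e-08 and 2.47e-08). MYC, a transcription factor known to raise SLC2A1 and SLC1A5, rose by 3.53 ± 0.18 on day 1 and 3.11 ± 0.18 on day 7. SLC1A5 itself rose on day 7 but not on day 1. ATF4, the amino acid response factor known to induce SLC7A1 and SLC3A2, averaged 12.46 ± 0.32 on day 1, against 10.70 ± 0.09 on day 0, a rise of 1.75 ± 0.19 (limma adjusted p = 1.69e-05). On day 7 it stood 0.98 ± 0.19 above day 0, under the minimum. HIF1A and EPAS1, transcription factors of the same list, were not called on day 1 or day 7 against day 0. HIF1A averaged 12.52, 13.06, 12.48, 12.14 and 12.24 on days 0, 1, 2, 4 and 7. EPAS1 averaged 7.82, 8.15, 7.67, 5.66 and 6.56 and was called in the time course.

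The arrestin ARRDC4 and its relative TXNIP, which remove SLC2A1 from the cell surface, fell on day 7. ARRDC4 read 9.93, 9.89 and 9.95 on day 7, against 11.71, 11.82 and 11.86 on day 0, a change of -1.87 ± 0.26 (limma adjusted p = 8.31e-05). TXNIP averaged 11.72 ± 0.35 on day 7, against 13.27 ± 0.28 on day 0, a change of -1.55 ± 0.26 (limma adjusted p = 0.000413). ARRDC4 also fell on day 1 (-1.06 ± 0.26), but not without day 1 replicate 3 (-0.66). TSC22D3, a glucocorticoid-induced gene, fell by 2.41 ± 0.37 on day 7. BSG, ATF4, TXNIP, HIF1A and EPAS1 were named after their values were seen. Whether any of these genes bears on the carriers was not tested.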

How the data were processed

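Total RNA was measured on 15 Affymetrix porcine genome arrays, 3 for each of 5 days of culture. The authors deposited log2 intensities per probe set from RMA, the robust multi-array average. RMA is the tool that the submitters' processing notes list, without its version. After 124 controls were left out, 23999 probe sets were tested. Symbols came from the array annotation, 10069 probe sets having 1 symbol, 198 several and 13732 none. No genome build was used and no sequences are shown.

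All 15 arrays entered 1 model with day as a factor, in limma 3.58.1 under R 4.3.3 (moderated t and F tests, Benjamini-Hochberg adjustment over all probe sets) for the time course and 6 comparisons. The fit was also run on simulated data with independent noise and no replicate effect. That run cannot show how the fit behaves when same-numbered arrays deviate together. The members, the substrate groups, the gene lists and the rules were chosen with earlier results of these data known. Carriers named in the text are, in each substrate group, up to 6 with the largest range among those called, in each comparison up to 12 rises and 12 falls, 32 fixed by name (19 had a named probe set and 13 are not analysed here), and those whose probe sets disagree. Of each list of other genes, up to 4 with the largest day 7 change are named. SLC38A9, SLC22A5, SLC37A4, SLC7A7, SLC7A9, SLC5A1, ABCB6 and the uncalled carriers listed without a test were added after their values were seen.

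Same-numbered arrays deviated together (lowest correlation 0.214 to 0.473) in all comparisons but day 1 against day 0 (0.0609), and the labels do not say that numbers pair arrays; the main fit has no block. Alternatives were 3 normalizations, a filter on the dimmest 40% of probe sets, trend and robust moderation, the replicate block, no minimum change, the mean of a gene's probe sets, only the 6 arrays compared and leaving out each array. Using only replicates 2 and 3 was chosen after seeing the data.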

Additional observations from a re-analysis of the deposited data

How the results depend on the processing

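No carrier or other named gene followed in the alternative runs reversed its direction, and BSG, HIF1A and EPAS1 were not followed in them. No normalization moved the median of all probe sets by over 0.1. Without the minimum change, 46 carriers were called in the time course (35.9% of all probe sets were). With day 0 as the baseline, 32 were called for day 1 (25.1% of all probe sets) and 43 for day 7 (31.3%). There were 6 between days 2 and 1 (6.09%), 9 between days 4 and 2 (4.18%), and 24 between days 7 and 1 (18.9%). With only the 6 arrays compared, the step between days 4 and 2 had 3. Leaving out each array in turn gave 27 to 31 carriers in the time course, 15 to 20 for day 1 and 22 to 25 for day 7 with day 0 as the baseline, 1 to 5 between days 2 and 1, 2 to 5 between days 4 and 2, 0 between days 7 and 4, and 11 to 14 between days 7 and 1. With replicate number as a block, 30 carriers were called in the time course, 19 and 23 for days 1 and 7 with day 0 as the baseline, 4, 5 and 0 in the 3 steps, and 12 between days 7 and 1. Among the named genes followed in these runs the block changed no calls other than those given beside SLC38A1, SLC3A1 and TFRC. The other counts stayed within 1.5 times those of the text. With only replicates 2 and 3, the calls of SLC11A2 (0.96) and SLC16A3 (0.98) on day 7 against day 0, of SLC2A1 (0.77) between days 2 and 1 and of SLC50A1 (-0.85) and ATP1B1 (0.71) on day 1 were lost. With only the 6 arrays compared, SLC16A3 (1.53), SLC2A5 (2.25) and SLC2A1 (1.12) were not called in the step named in the text, nor were ARRDC4 (-1.06) and ATP1B1 (1.40) on day 1. The causes were not tested. Signal over background limits the 23 dim carriers, for which a change could not be told from none, and 3 arrays a day limit all steps.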

Other observations

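Other transport proteins of the plasma membrane and organelles were taken from lists chosen in the same way. Most were not called on day 7 against day 0, as were most probe sets of the array, of which 16.6% were called. Of 5 measured water channels, AQP1, the widespread water channel of vessel walls and epithelia, read 9.79, 9.28 and 9.70 on day 7, against 5.52, 5.82 and 6.25 on day 0, and rose by 3.72 ± 0.31 (13.2-fold, limma adjusted p = 6.28e-07). It had already risen by 2.24 ± 0.31 on day 1. AQP11, an intracellular relative, fell by 1.81 ± 0.29 on day 1 and changed by -1.24 ± 0.29 on day 7, where the call was lost without day 7 replicate 1 (-0.93). AQP8 averaged 5.11 on day 7, against 5.35 on day 0, and AQP3 was dim.

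Of 11 measured ABC transporters 2 rose on day 7 against day 0 and none fell. Of all probe sets 9.36% rose and 7.28% fell. ABCC6, an exporter known for its part in soft tissue calcification, averaged 8.04 ± 0.63 on day 7, against 5.68 ± 0.54 on day 0, and rose by 2.36 ± 0.56 (limma adjusted p = 0.00481). ABCA1, which exports cholesterol, averaged 8.92 ± 0.45 on day 7, against 7.35 ± 0.21 on day 0, and rose by 1.57 ± 0.21 (limma adjusted p = 6.20e-05). On day 1 ABCC6 rose by 2.58 ± 0.56 and ABCB6, a porphyrin carrier, fell by 1.28 ± 0.18. ABCB1, the multidrug exporter, and its relative ABCG2 were called in the time course but not on day 7 against day 0 (-1.38 ± 0.60 and -0.77 ± 0.22). The day means of ABCB1 were 8.01, 8.17, 5.73, 5.63 and 6.63 on days 0, 1, 2, 4 and 7, and those of ABCG2 were 9.59, 9.36, 8.54, 8.85 and 8.82.

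Of 9 measured ion pumps 1 rose on day 1 and 1 on day 7 (6.47% and 9.36% of all probe sets rose). ATP1B1, a subunit of the sodium-potassium pump, rose by 1.40 ± 0.34 on day 1, but not without day 0 replicate 1 (0.92). ATP2A2, the calcium pump of the endoplasmic reticulum, rose by 1.05 ± 0.14 on day 7, but not without day 0 replicate 3 (0.96) or day 7 replicate 2 (0.98), nor after a second quantile normalization (0.83) or cyclic loess (0.80). Of 13 measured genes of iron, zinc and copper handling, MT3, a metallothionein, fell by 1.33 ± 0.17 on day 7 and was the only one called. TFRC, the transferrin receptor, read 8.33, 6.57 and 6.69 on day 7, against 5.92, 5.71 and 5.59 on day 0. Its change of 1.45 ± 0.75 was not called (limma adjusted p = 0.166), except with replicate number as a block (0.0340). The list medians on day 7 were 0.22 for water channels, -0.14 for ABC transporters, 0.39 for pumps and -0.01 for metal handling, against -0.05 over all probe sets.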
